A study of Mus musculus with 6 samples.

Results

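The urokinase system of 4T1 cells was described after treatment with a kinase inhibitor. Its members were taken from a list of plasminogen activation genes, namely the protease genes Plau, Plat and Plg, the receptor gene Plaur and the serpin inhibitor genes Serpine2, Serpinb2 and Serpinf2. Each gene was read from probe sets annotated with exactly 1 gene symbol, and the brightest was kept where a gene had more than 1. By this rule 6 of the 7 listed genes were found, each with 1 probe set, among 19938 genes in all, and Serpine2 was not analysed here. 4T1 is a mouse mammary carcinoma cell line. The control dishes received the vehicle DMSO and the others 500 nM TKI258 in DMEM with serum, both for 16 h, and 3 dishes of each kind gave 1 Affymetrix array each. TKI258, also known as dovitinib, blocks several receptor tyrosine kinases, among them those for FGF, VEGF and PDGF. The question put to these arrays is which transcripts of plasminogen activation changed under the drug, in 1 cell line at 1 dose and 1 time.

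Plasminogen is an inactive zymogen that urokinase and tissue plasminogen activator convert to plasmin, a protease that degrades fibrin and matrix proteins and activates other proteases. Urokinase acts mostly at the cell surface, where it is held by its receptor uPAR, and invasive tumour cells commonly make both. Serpins oppose the pathway at each step by trapping the activators or plasmin itself in inactive complexes. Plasminogen and alpha 2-antiplasmin, its main inhibitor in blood, are made chiefly by the liver.

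Transcripts of the receptor, of urokinase and of its inhibitor PAI-2 fell after TKI258, while that of tissue plasminogen activator rose. Plaur changed most, to 3.23-fold lower, followed by Serpinb2 at 2.12-fold lower and Plau at 1.67-fold lower, and Plat was 1.41-fold higher. Of the 6 measured members 3 were lower and 1 higher in limma at an adjusted p below 0.05, and Plg and Serpinf2 did not pass. Over all 19938 genes 12.6% were called lower and 14.4% higher, 27.0% in either direction. The 4 called members had groups that did not overlap, as had 40.2% of all genes.

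Upstream regions are shown for Plaur, Serpinb2 and Serpinf2, the only 3 measured members found among the RefSeq promoters of GRCm38.p6. Plau, Plat and Plg had no region there and were not searched. For this reason motif matches were not compared between called and uncalled members. Each region is the 250 bases before a transcription start site, read 5′ to 3′ on the gene's strand. Plaur lies at chr7:24462233-24462482 on the plus strand, Serpinb2 at chr1:107511173-107511422 on the plus strand for the first of its listed start sites, and Serpinf2 at chr11:75439502-75439751 on the minus strand. Capitals mark matches to TGANTCA, a relaxed form of the motif that AP-1 factors bind.
Plaur: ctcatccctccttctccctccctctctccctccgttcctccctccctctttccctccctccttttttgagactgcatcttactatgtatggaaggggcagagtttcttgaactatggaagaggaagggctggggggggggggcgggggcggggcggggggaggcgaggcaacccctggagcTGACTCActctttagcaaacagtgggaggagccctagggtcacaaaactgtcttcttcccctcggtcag
Serpinb2: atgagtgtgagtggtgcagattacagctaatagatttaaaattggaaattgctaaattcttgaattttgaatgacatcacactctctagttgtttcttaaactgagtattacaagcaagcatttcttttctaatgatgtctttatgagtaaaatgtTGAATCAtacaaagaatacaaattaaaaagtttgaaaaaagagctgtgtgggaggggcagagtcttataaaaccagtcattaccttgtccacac
Serpinf2: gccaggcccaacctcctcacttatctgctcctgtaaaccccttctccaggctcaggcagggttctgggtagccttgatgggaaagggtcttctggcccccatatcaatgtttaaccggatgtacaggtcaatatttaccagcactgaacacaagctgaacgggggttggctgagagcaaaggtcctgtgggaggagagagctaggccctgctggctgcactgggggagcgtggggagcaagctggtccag

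In the Plaur region the match reads TGACTCA and ends 62 bases before the start site. In Serpinb2 it reads TGAATCA and ends 87 bases before it, with a TATAAA box 23 bases before the start site. The region of Serpinf2 held none of these. The relaxed motif was present in 6.75% of 32851 promoter regions of the same length, searched on both strands. The strict form TGAGTCA, which covers TGACTCA on the other strand, was present in 4.46% and matched Plaur but not Serpinb2. TATAAA was present in 12.4% and CCGCCC, matched in Plaur, in 32.7%. Of 10 motifs searched, the ETS core GGAA matched all 3 genes but also 93.4% of all regions. The longer ETS forms GGAAGT (19.7% of regions) and CCGGAAG (6.91%), the E-box CACGTG (6.02%), the CRE-like form TGACGCAA (0.438%) and a kappa B motif (1.41%) matched none of them. The ETS forms contain the core, and the relaxed AP-1 motif contains the strict one. The motifs were chosen after the expression values were seen, and a match is a description of letters, not a bound site.

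Plaur encodes uPAR, the membrane-anchored receptor that concentrates urokinase at the cell surface. The log2 signals were 9.86, 9.89 and 9.96 in the DMSO arrays and 8.25, 8.13 and 8.26 in the TKI258 arrays. All 3 treated arrays lay far below all 3 controls, and the spread within each group was small beside the gap. The group means were 9.90 ± 0.05 (SD, n = 3) and 8.21 ± 0.07, a log2 change of -1.69 (SE 0.07, limma adjusted p = 9.69e-07). The 95% interval ran from -1.84 to -1.54, and the fall ranked 26 among the falls of all genes.

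Plau encodes urokinase, the activator that binds this receptor. It read 8.62, 8.60 and 8.80 under DMSO and 8.03, 7.79 and 7.99 under TKI258. The groups did not overlap, and replicate 2 was the lowest of the treated arrays for Plau as it was for Plaur. Mean log2 signals were 8.67 ± 0.11 (SD, n = 3) and 7.94 ± 0.13, a log2 change of -0.74 (SE 0.09, limma adjusted p = 0.000258) with a 95% interval of -0.93 to -0.54.

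Plat encodes tissue plasminogen activator, the activator best known for dissolving fibrin clots, which does not use uPAR. Its log2 signals were 6.60, 6.44 and 6.66 with DMSO and 7.15, 7.02 and 7.03 with TKI258. Every treated array was above every control. The means were 6.57 ± 0.11 (SD, n = 3) and 7.07 ± 0.07, a log2 change of 0.50 (SE 0.08, limma adjusted p = 0.00123) with a 95% interval of 0.32 to 0.68. Tested against a minimum fold of 1.2 with limma's treat, the adjusted p was 0.0694.

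**Figure D1:**
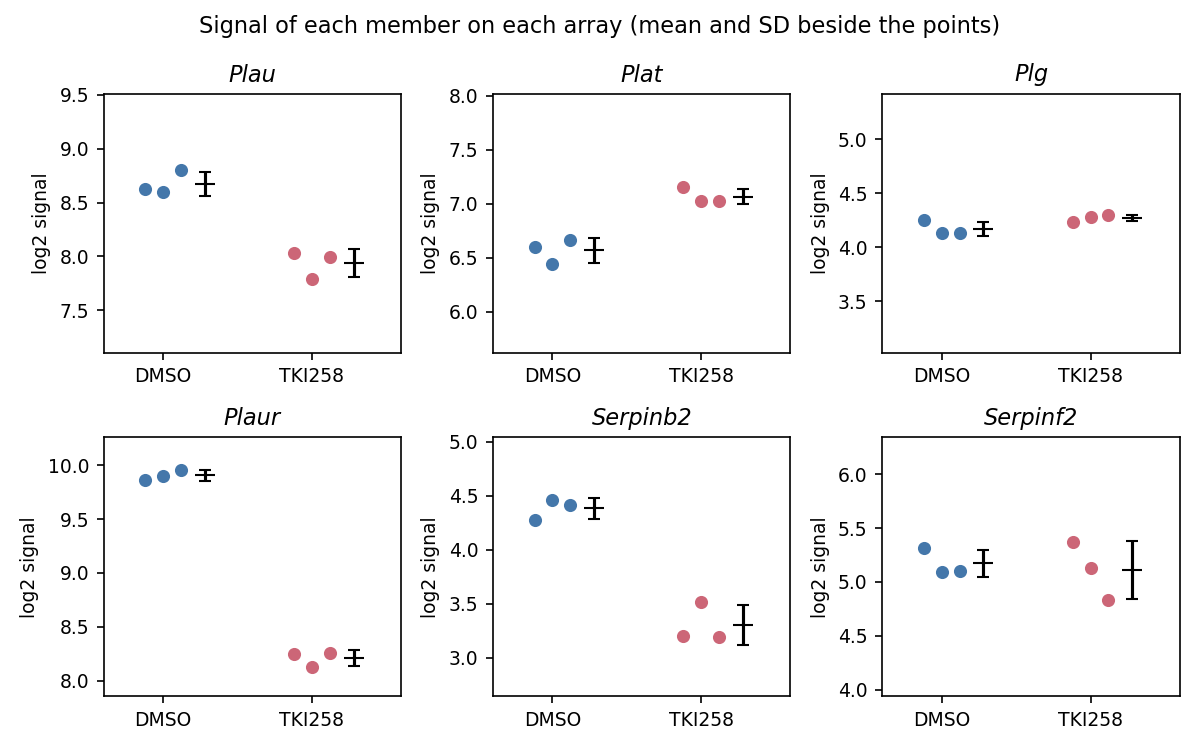
Log2 signal of the 6 measured members on each array, with DMSO in blue and TKI258 in red, and the mean with its SD (n = 3) to the right of each group. Each panel spans the same number of log2 units around its own centre, so that gaps can be compared but levels of different genes cannot. The groups are apart in Plau, Plat, Plaur and Serpinb2, and overlap in Plg and Serpinf2.

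Plg encodes plasminogen itself. It read 4.25, 4.13 and 4.13 in the controls and 4.24, 4.28 and 4.30 in the treated arrays. The groups overlapped, and all values were under 5.01, the median over all probe sets. The log2 change was 0.10 (SE 0.06, limma adjusted p = 0.329), with a 95% interval of -0.05 to 0.25.

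Serpinb2 encodes PAI-2, a clade B serpin that inhibits urokinase and tissue plasminogen activator and is found largely inside cells. Its log2 signals were 4.27, 4.46 and 4.41 under DMSO and 3.20, 3.52 and 3.19 under TKI258. The groups were apart, and replicate 2 was the highest of the treated arrays here. The means of 4.38 ± 0.10 (SD, n = 3) and 3.30 ± 0.19 gave a log2 change of -1.08 (SE 0.10, limma adjusted p = 6.47e-05) with a 95% interval of -1.31 to -0.85. Both means were also under that median, in a range where background takes a larger part of the signal and the size of a change is less certain.

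Serpinf2 encodes alpha 2-antiplasmin, the serpin that inactivates plasmin. It read 5.32, 5.10 and 5.10 with DMSO and 5.37, 5.13 and 4.83 with TKI258. The treated arrays reached both above and below the controls. The log2 change was -0.06 (SE 0.13, limma adjusted p = 0.801), and its 95% interval of -0.35 to 0.23 was the widest of the 6. The sign turned without DMSO replicate 1 (0.013) and without TKI258 replicate 3 (0.081).

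**Figure D2:**
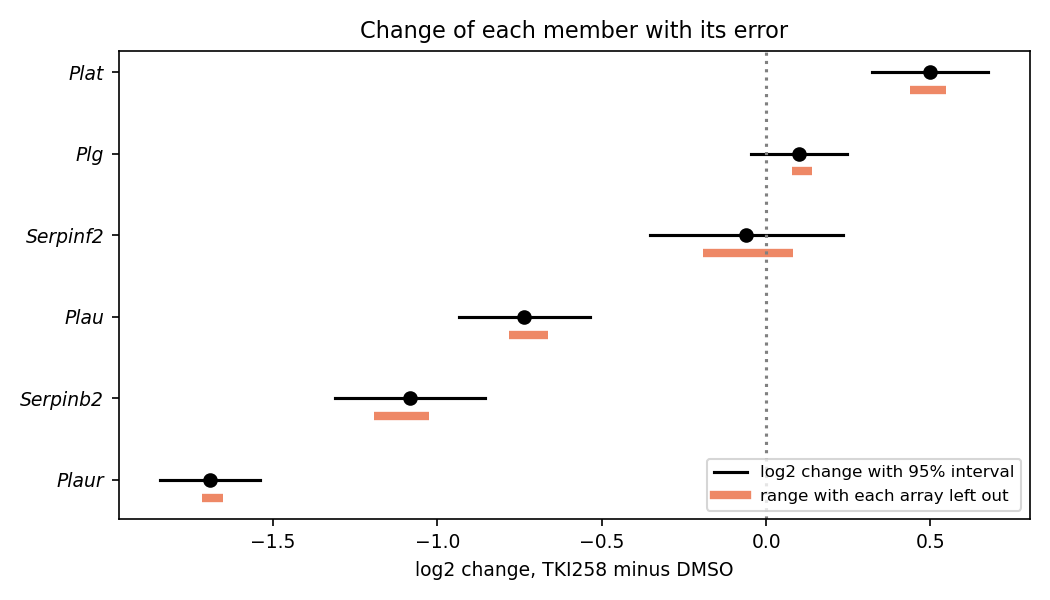
Log2 change of each measured member, TKI258 minus DMSO, as a point with its 95% interval from limma (black), and the range of values when each array is left out in turn (orange). The intervals of Plaur, Serpinb2 and Plau lie below 0, that of Plat lies above it, and those of Plg and Serpinf2 include it.

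The members were also set against one another within arrays. On each array the log2 signal of one was subtracted from that of another, and the shift of this difference between the groups was tested, which cancels the unknown brightness of the probes. Plau minus Plat was 2.02, 2.16 and 2.14 in the DMSO arrays and 0.88, 0.77 and 0.96 in the TKI258 arrays, a shift of -1.24. Plaur minus Plau was 1.24, 1.30 and 1.15 against 0.21, 0.34 and 0.27, a shift of -0.96. In both pairs the groups were apart, with every treated array below every control. For Plau minus Plat this followed from the members' own values, since Plau was lower and Plat higher on every treated array. Each shift restates the log2 changes given above and is no separate evidence. Serpinb2 minus Plau was -4.35, -4.13 and -4.39 against -4.84, -4.27 and -4.80, a shift of -0.35 whose groups overlapped. The two-sided exact permutation p was 0.1, 0.1 and 0.3, or 0.15, 0.15 and 0.3 adjusted over these 3 pairs. With 3 arrays a group 0.1 is the smallest p this test can give, so none could pass 0.05.

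Genes that bind, concentrate or clear plasminogen and its activators changed in 8 of 18 measured cases, 6 higher and 2 lower. This was 44.4% against 27.0% of all genes, and their median log2 change was 0.00 against 0.01 over all genes. The plasminogen receptor gene Plgrkt rose by 0.65 (SE 0.09, limma adjusted p = 0.000446). Anxa2 and S100a10, brighter genes of the same list, had log2 changes of -0.002 and -0.18 and did not pass. Lrp1, an endocytic receptor that clears complexes of activator and inhibitor, rose by 0.61 (SE 0.15, limma adjusted p = 0.0153), a call lost without DMSO replicate 3 (adjusted p = 0.0601). Its chaperone gene Lrpap1 rose by 0.50 and the sorting receptor gene Sorl1 by 1.02. Of the integrin subunit genes, some of whose products bind vitronectin or uPAR at the cell surface, Itgb5 rose by 1.24 and Itgb3 by 0.78, while Itga5 fell by 0.47 and Itga3 by 0.45. The falls of Itga5 and Itga3 did not pass against a minimum fold of 1.2 (treat adjusted p = 0.0968 and 0.188).

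Among 23 measured other regulators of plasminogen activation and plasmin, cell-surface and secreted plasma proteins included, 4 were higher and 1 lower. The share called was 21.7% against 27.0% of all genes, and the median log2 change was -0.02. St14, which encodes matriptase, a membrane protease able to activate pro-urokinase, rose by 0.97 (SE 0.08, limma adjusted p = 2.75e-05). The membrane protease gene Hpn rose by 0.33 and Serping1, which encodes the C1 inhibitor, by 0.63, both with means under the median over all probe sets. Serpinb8 rose by 1.25, and Procr, the endothelial protein C receptor gene, fell by 0.77. Of these 23 genes 7 are serpins that were counted again among the serpins, Serpinb8 and Serping1 with them.

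Of 23 measured clade B serpins other than Serpinb2, 5 were higher and 0 lower in limma, with a median log2 change of 0.10. The share called was 21.7% against 27.0% of all genes. At an unadjusted p below 0.05, 7 were higher and 1, Serpinb6a, was lower, at a log2 change of -0.16. Serpinb6a passed the adjusted threshold with eBayes in its trend and robust form and when dim genes were left out. Serpinb8 rose by 1.25 and Serpinb9, which encodes a granzyme B inhibitor, by 1.15 (SE 0.10, limma adjusted p = 5.25e-05). Serpinb6b rose by 0.61, Serpinb9b by 0.54 and the maspin gene Serpinb5 by 0.24, the last from 3.36 to 3.60 log2 units, both under the median over all probe sets. The calls of Serpinb5 and Serpinb9b did not hold when either DMSO replicate 1, the second DMSO array or TKI258 replicate 2 was left out, and that of Serpinb9b also failed without TKI258 replicate 3. Without DMSO replicate 2 or without TKI258 replicate 2 the count was 3 higher. Members of this clade have close relatives, so that probes may read more than 1 gene. Only 5 of the 23 had a mean above 5, and at low signals a fall is less readily seen.

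Serpins of the other clades were higher in 3 of 21 measured cases and lower in 0, with a median of 0.06. The share called was 14.3% against 27.0% of all genes. At an unadjusted limma p below 0.05 the counts were 4 higher and 0 lower. Serpinf1, which encodes the anti-angiogenic factor PEDF, rose by 0.77 (SE 0.10, limma adjusted p = 0.000414), Serping1 by 0.63 and Serpina1c, an alpha 1-antitrypsin gene, by 0.42. Serping1 went from 4.27 to 4.90 and Serpina1c from 2.95 to 3.37, all under the median over all probe sets. The call of Serpina1c was lost without DMSO replicate 2 or TKI258 replicate 2, with adjusted p up to 0.0677 when an array was left out. In the uPAR and Ly6 family of three-finger proteins, to which Plaur belongs, 1 of 31 other measured genes was higher and 1 lower. The share called there was 6.45% against 27.0% of all genes. Spaca4 rose by 0.34 and Lypd3, a near relative of uPAR, fell by 0.21 (limma adjusted p = 0.0489). The call of Lypd3 was lost when any array except DMSO replicate 1 was left out. The range of log2 changes in this family was -0.31 to 0.34. Most of these genes had means under the median over all probe sets, while Plaur read 9.90 under DMSO. At low signals a fall is less readily seen.

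Genes for plasmin's substrates, matrix proteins and stored growth factors were called in 14 of 26 cases, 5 higher and 9 lower, with a median of 0.00. That was 53.8% against 27.0% of all genes. Mmp3, whose proenzyme plasmin can activate, fell by 2.89. Mmp1b, another matrix metalloproteinase gene, fell by 2.48 to a mean of 2.97, a level at which the size of a change is less certain. Tgfb3 and Tgfb2, encoding ligands secreted in latent form, rose by 1.45 and 1.26. Tgfb1, which encodes another such ligand, fell by 0.57 (limma adjusted p = 0.000445). Ltbp2 rose by 1.77, the thrombospondin gene Thbs1 by 1.46 and the fibronectin gene Fn1 by 0.51. Mmp1b has a close relative in the genome, so its probes may read both. That relative, Mmp1a, had a log2 change of -1.76 on its own probe set, to a mean of 3.24. Mmp9, Mmp10 and Mmp13 were also called, with log2 changes of -1.44, -1.28 and -1.03, while Mmp2 and Mmp12 did not pass. Of 24 AP-1 and ETS factor genes 7 were higher and 8 lower, 62.5% called against 27.0% of all genes, with a median of 0.00. Some of their products are known to act on the urokinase and uPAR promoters, but any part of these factors in the members' changes was not tested. Fosl1 fell by 1.92 (SE 0.10, limma adjusted p = 3.09e-06), and Etv4 and Etv5 had log2 changes of -2.09 and -1.94, while Fosl2 rose by 1.24.

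**Figure D3:**
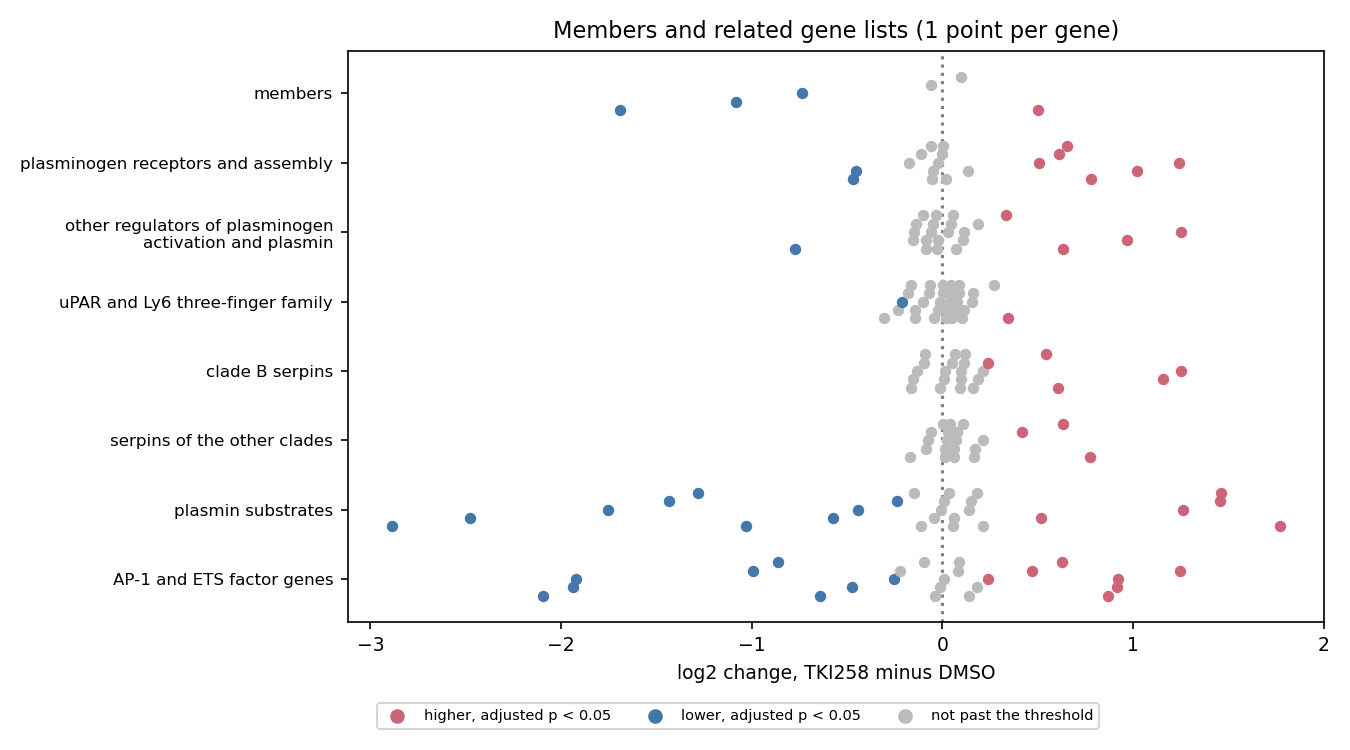
Log2 change, TKI258 minus DMSO, of the measured members and of the genes in 7 related lists, 1 point per gene, in red or blue where limma's adjusted p was below 0.05. Plaur lies at -1.69 while the other genes of its protein family stay between -0.31 and 0.34, and Serpinb2 at -1.08 while the 5 other called genes of its clade are higher. Most of the other genes in both families had means under the median over all probe sets, where a fall is less readily seen.

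Gene neighbourhood was set out for the 4 called members from the RefSeq gene order of GRCm38.p6, a rule chosen after the values were seen. Of the 3 nearest tested genes on either side of each, 24 in all, 4 were higher, 3 lower and 17 did not pass. Among all genes 14.4% were called higher and 12.6% lower, 27.0% in either direction. Beside Plaur, the potassium channel gene Kcnn4 went from 10.02 to 8.54, a log2 change of -1.48 (SE 0.10, limma adjusted p = 1.37e-05), with Zfp428 at -0.34 and Irgq at 0.35. Smg9 and Irgc1, which lie between Kcnn4 and Plaur, and Cadm4, the next gene on the other side, had log2 changes of -0.22, -0.15 and 0.21 and did not pass. Serpinb2 sits in a cluster of clade B serpin genes, where Serpinb8 rose by 1.25 and Serpinb3c, Serpinb11, Serpinb7 and Serpinb10 had log2 changes of 0.19, 0.10, 0.05 and 0.21 without passing. The DMSO means of Serpinb3c, Serpinb11, Serpinb7 and Serpinb10 were 2.81, 2.57, 2.52 and 2.56, so low that a fall could hardly be seen. The genes directly beside Plau, Camk2g and Vcl, had log2 changes of -0.18 and 0.07 and did not pass, while the outermost of its 6, Zswim8 and Adk, had 0.64 and -0.29 and passed. Directly beside Plat, Ap3m2 rose by 0.55, and Ikbkb on the other side did not pass, at 0.09.

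The genes most like each called member over the 6 arrays were found by the root mean square difference between profiles centred on their own means. For Plaur they were Mfsd2a, Slco4a1 and Tmprss11e, at differences of 0.07, 0.08 and 0.08 log2 units, and for Plau Egln3, Slc2a1 and Sema6b, each at 0.04. For Serpinb2 they were Mcpt8, Nipal4 and Naf1, at 0.05, 0.06 and 0.09. For Plat they were Tmem25 at 0.02, Ebpl at 0.04 and Zbtb4 at 0.04. A likeness over 6 arrays in 2 groups reflects mainly the size of the change, and no test was made of it.

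**Figure D4:**
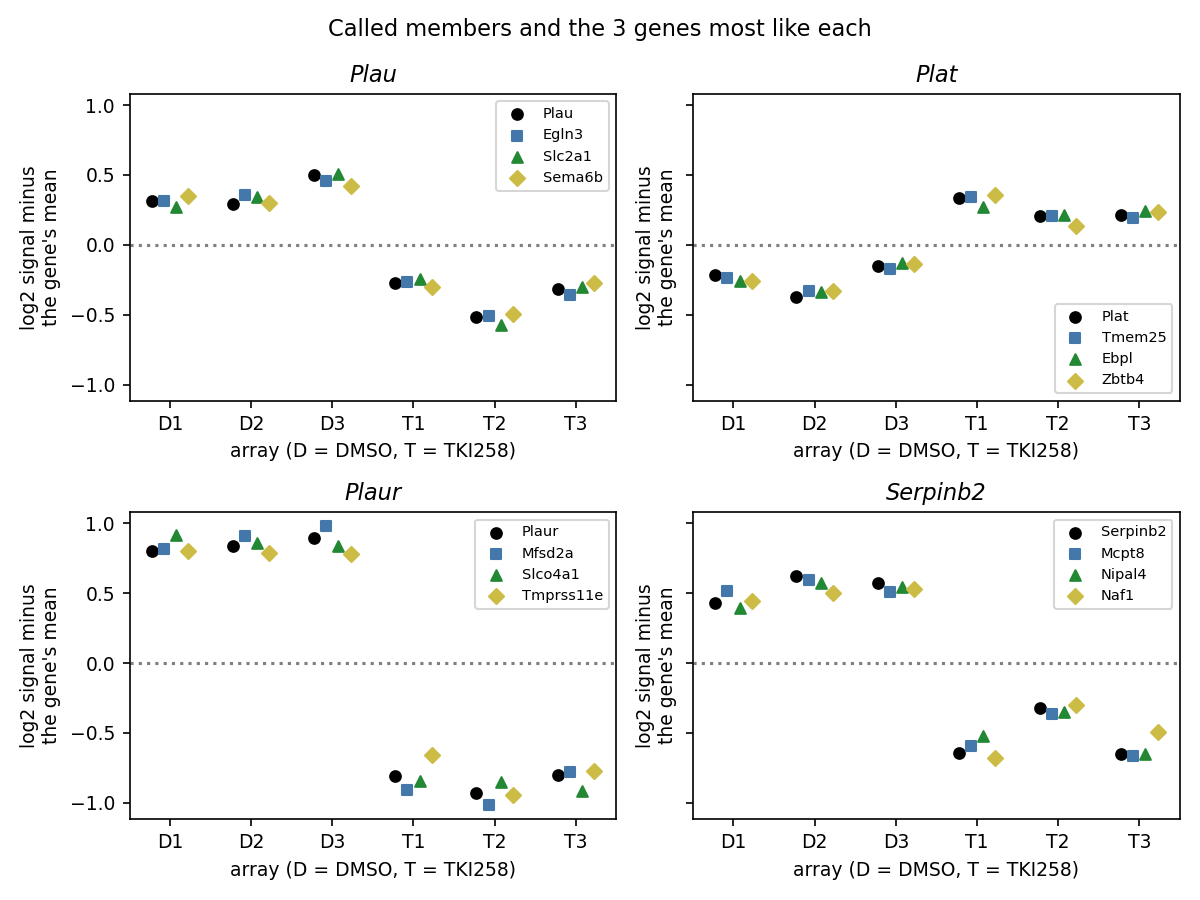
Log2 signal minus the gene's own mean over the 6 arrays, for each called member (black circles) and the 3 genes with the smallest root mean square difference from it. D1 to D3 are the DMSO arrays and T1 to T3 the TKI258 arrays. The 3 genes most like Plau share its high value in D3 and its low value in T2, which their choice by likeness over these same arrays favours.

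Array medians were 4.97 to 5.04 log2 units, and correlations over all genes were 0.997 to 0.998 within groups and 0.988 to 0.990 between them. Of 8 mammary epithelial markers 7 had means above the median over all probe sets. Their mean log2 signal was 8.20 to 8.32 in the DMSO arrays and 8.50 to 8.64 in the TKI258 arrays, with Krt14, Cdh1 and Cldn4 higher and Krt18 and Krt7 lower. For these and the marker counts below, the share called among all genes was 14.4% higher and 12.6% lower, 27.0% in either direction. Of 7 hepatocyte markers, of interest because Plg and Serpinf2 are liver genes, none passed in limma (1, Fgb, at an unadjusted p below 0.05), at means of 3.92 to 3.99 and 3.98 to 4.01. Of 6 endothelial markers none passed, also unadjusted, at 3.73 to 3.82 and 3.71 to 3.73. Of 7 macrophage and leukocyte markers 1, Cd68, was higher, at means of 4.16 to 4.20 and 4.26 to 4.34, and of 6 fibroblast markers 1, Dcn, was higher, at 4.65 to 4.74 and 5.08 to 5.14. Dcn had a log2 change of 2.01 and the other 5 fibroblast markers had -0.05 to 0.18. At an unadjusted p below 0.05, 3 of the fibroblast markers (Col1a1, Dcn and Lum) were higher and 0 lower, and of the leukocyte markers 1 was higher and 0 lower. The part of these shifts in the members' values was not tested. In dishes of 1 cell line, more or fewer cells that express a marker cannot be told apart from more or less RNA per cell.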

How the data were processed

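Expression was measured in 6 arrays of 4T1 cells, grouped by their titles as DMSO or TKI258, with 3 separate dishes each. The authors deposited 1 value per probe set for 35557 probe sets. These deposited values were taken as log2 signals from their range of 1.62 to 13.96 and near-equal medians, because no source used here states the scale. Per the submitters' processing notes the tools were RMA, affy and limma, with no version or role given. RMA commonly equalises array distributions and summarises probes, which can shrink changes of dim genes. The table holds no detection calls. Precision is limited by the number of arrays.

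Probe sets were named from the platform annotation. Of them 21789 had 1 symbol, 1621 several and 12147 none there. The reference gene table matched 21698 gene IDs and changed 0 symbols. TKI258 was compared with DMSO across all 19938 genes with the limma functions lmFit and eBayes (limma 3.58.1, R 4.3.3) and no term besides treatment, two-sided p-values and Benjamini-Hochberg adjustment over all genes at 0.05. Differences between members were tested in SciPy 1.17.1. The fit was tested on simulated data.

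The members, the lists and the alternatives were chosen with earlier results of these data known. Named were all members, up to 4 called genes per list with the smallest adjusted p, every called gene where a direction held 5 or fewer, and the 3 genes most like each called member. Lrp1, Lrpap1, Anxa2, S100a10, Tgfb1, Serpinb6a and further matrix metalloproteinase genes were named outside this rule. So were neighbouring genes, further serpins of the Serpinb2 cluster and called markers. Alternatives were a replicate block, each array left out, renewed quantile normalization, median centring, a filter at a mean of 5, averaged probe sets, array weights, eBayes with a trend and robust priors, no variance moderation, an adjusted p of 0.01, and treat.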

Additional observations from a re-analysis of the deposited data

How the results depend on the processing

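Plau, Plaur and Serpinb2 stayed lower and past the threshold in every alternative that could be run, 16 for Plau and Plaur and 15 for Serpinb2, which the filter on dim genes removed along with Plg. With each array left out the log2 change of Plaur was -1.71 to -1.65, of Serpinb2 -1.19 to -1.03, of Plau -0.78 to -0.66, of Plat 0.44 to 0.55, of Plg 0.08 to 0.14 and of Serpinf2 -0.19 to 0.081. Against a minimum fold of 1.2, Plat kept its log2 change of 0.50 but had an adjusted p of 0.0694, and 1057 genes were higher and 864 lower, which follows from the stricter null hypothesis. Serpinf2 turned to 0.013 without DMSO replicate 1 and to 0.081 without TKI258 replicate 3, in neither case past the threshold. Over all genes 2289 to 2705 were higher and 2026 to 2586 lower with an array left out. Same-numbered arrays had correlations of their deviations of 0.02 to 0.15, so the numbers were not taken as pairs. With the replicate block 2877 genes were higher and 2487 lower, the adjusted p of Plat was 0.00324 and no member's call changed. Among related genes, the calls of Fn1, Hpn, Spaca4, Serpina1c, Serpinb9b and Lrp1 were lost against a minimum fold of 1.2 (adjusted p = 0.122, 0.993, 0.837, 0.602, 0.349 and 0.193), as were those of Lypd3, Serpinb5, Itga3 and Itga5. Without moderated variance Fn1, Lypd3, Serpina1c, Serpinb9b and Lrp1 lost theirs (0.0515, 0.0727, 0.134, 0.177 and 0.139), and at an adjusted p of 0.01 Lypd3, Serpina1c, Serpinb5, Serpinb9b and Lrp1 did. The call of Lypd3 was also lost with array weights, those of Lypd3 and Serpina1c with the replicate block (0.0641 and 0.0579) and that of Serpinb5 with median centring (0.0513). Median centring moved the median log2 change of all genes from 0.01 to -0.01. Of 224 recomputed list counts 203 stayed within 1.5 times of the reported one, and the other 21 moved by at most 2 genes. The cause of these moves and of the turns of Serpinf2 was not tested.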
